A study of Homo sapiens with 2 samples.

Results

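Ion channel subunits are the proteins that form or regulate gated pores for potassium, sodium, calcium, chloride or water, or the channels between neighbouring cells. The rule took every row of the deposited FPKM table whose gene name begins with 1 of the family prefixes for potassium (KCN), calcium (CACN), sodium (SCN), chloride (CLCN, CLIC), HCN, TRP, P2X, PIEZO, anoctamin, intracellular calcium release, connexin, pannexin, aquaporin, glutamate receptor, GABA-A receptor and nicotinic receptor genes. It gave 151 of the 19217 rows, which stand for 96 of 12493 gene names. The antisense names KCNIP2-AS1 and KCNQ1OT1 were left out. The 96 include TRPC4AP, an adaptor and not a pore, and P2RX5-TAX1BP3, a read-through of neighbouring genes. GENCODE release 29 annotates 290 protein-coding genes that match the rule. The other 194 had no row under their names in the deposited table and so could not be analysed here.

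Polyadenylated RNA was sequenced from SBC5, a cell line long established from a small cell lung cancer. The cisplatin-resistant derivative had been raised from the parental line by stepwise cisplatin at 1, 2, 4 and 20 µg/ml, and the parental line had not. Both were grown in RPMI with fetal bovine serum, and whether the derivative is a clone or a mixed population is not given in the sources used here. There was 1 library of each line and so no replicate check, no test and no p-value, and each difference below describes these libraries alone. FPKM divides the fragments of a locus by its length and by the size of the library, so levels can be compared between genes.

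Of 15 fixed markers of this cancer, 8 were in the table, with a summed level of 353.6 FPKM in the resistant and 353.7 FPKM in the parental library. Their log2 ratios lay between -0.12 (SOX2) and 0.53 (NCAM1), with 6 of the 8 above 0. SOX2, at 197 FPKM in resistant and 214 FPKM in parental cells, and YAP1, at 84.7 FPKM in resistant and 76.6 FPKM in parental cells, differed in direction and made up most of the sum. The neuroendocrine marker NCAM1 had 1.64 FPKM in resistant and 0.821 FPKM in parental cells. Of 14 markers of other cell types COL1A1 and HBB alone were in the table, and both were under 4 FPKM in both libraries. In bulk RNA, fewer cells that express a gene and less of its RNA per cell cannot be told apart.

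Channels set the membrane potential and the calcium signals of excitable and other cells, and cells of a tumour of neuroendocrine origin commonly express channels also known from neurons. Pore-forming subunits carry the current, auxiliary subunits set its gating and its place in the cell, and ligand-gated receptors open when a transmitter binds. Calcium release channels lie in the endoplasmic reticulum, and several chloride exchangers and anoctamins act in internal membranes.

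Values were compared as a log2 ratio of the resistant over the parental library after 1 FPKM was added to each, which understates the change of genes at low level. A gene was compared when it reached 1 FPKM in either library, and a ratio of at least 1 or at most -1, 2-fold on this scale, was the limit used in place of a test. KCNQ1 and SCN3B stayed under 1 FPKM in both libraries, which left 94 channel genes. Of these, 12 were at least 2-fold higher in the resistant library (12.8%), against 3.27% of all 12404 genes compared, and 5 were at least 2-fold lower (5.32%), against 2.70%. The median log2 ratio was 0.11, with 56 genes above 0 (59.6%) and 38 below, beside a median of -0.04 over all genes, of which 44.3% lay above 0. Of the 12 higher genes, 8 were under 1 FPKM in the parental library and were compared through the resistant library alone, so they had to be higher there.

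Level and locus type moved with these counts. Channel genes had a median of 5.68 FPKM in the resistant and 5.01 FPKM in the parental library, where all genes had medians of 14.3 FPKM in the resistant and 14.5 FPKM in the parental library. Among genes with a mean under 5 FPKM, 10 of 45 channel genes were higher (22.2%), against 6.97% of all such genes, and 2 were lower, against 4.58%. Between 5 and 20 FPKM, 2 of 33 channel genes were higher and 3 lower, where the shares of all genes were 3.48% and 2.74%. None of the 16 channel genes at a mean of 20 FPKM or more passed the limit, where 1.09% of all such genes were higher and 1.66% lower. Loci to which the row order gave no strand stood for 4 of the 12 higher genes. With strand-assigned loci alone, 8 of 92 channel genes were higher (8.70%, against 2.84% of all genes) and 5 lower (5.43%, against 2.50%). With the pseudocount raised to 5 FPKM, 2 of 94 were higher (2.13%, against 1.14% of all genes) and 2 lower (2.13%, against 1.10%).

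**Figure D1:**
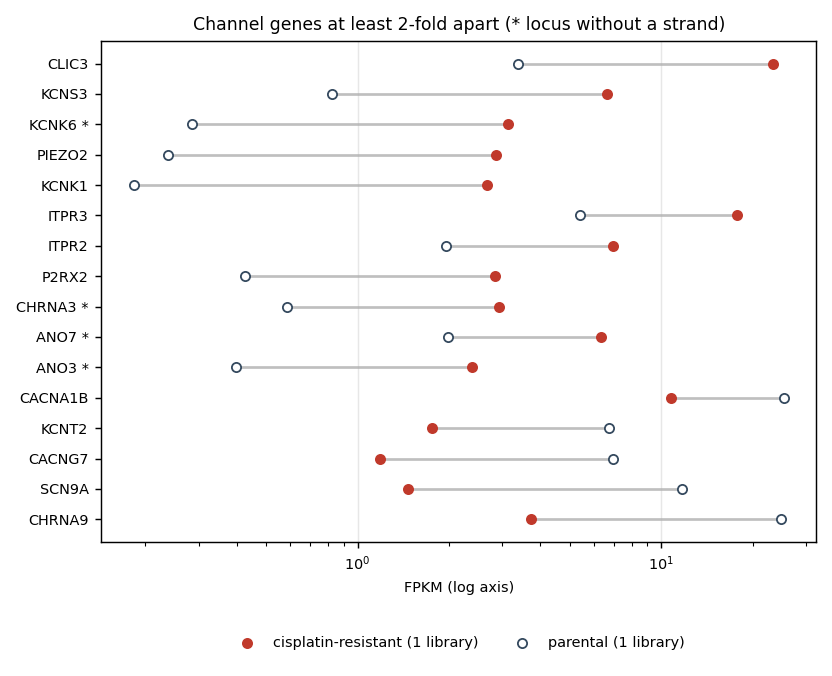
FPKM (log axis) of 16 of the 17 channel genes at least 2-fold apart, with filled points for the cisplatin-resistant and open points for the parental library, and an asterisk where a locus without a strand stands for the gene. CLIC3 and ITPR3 are the higher genes above 10 FPKM in the resistant library, and CHRNA9, CACNA1B and SCN9A are the lower genes above 10 FPKM in the parental library.

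Of the 17 genes, CLIC3, ITPR3, CHRNA9 and SCN9A alone stayed past 2-fold under all 8 other settings that gave a log2 ratio. Not all of these settings could change a ratio. The filters change none, and summed or strand-assigned loci change none for CLIC3, CHRNA9 and SCN9A, which have 1 locus each. Each other gene of the 17 fell inside the limit with a pseudocount of 5 FPKM, which weighs most on genes at low level. The promoters of CLIC3, ITPR3, SCN9A and CHRNA9, 250 bases before to 50 after the RefSeq start, are shown because these genes stayed past the limit. RefSeq starts can differ from those of the GENCODE genes given next. The ITPR3 window lies wholly inside its GENCODE gene, and most of the CLIC3 window lies inside that of CLIC3. In GENCODE release 29 on hg38 the genes lie at chr9:136994635-136996803 on the minus strand (CLIC3), chr6:33620365-33696574 on the plus strand (ITPR3), chr2:166195185-166376001 on the minus strand (SCN9A) and chr4:40335329-40355217 on the plus strand (CHRNA9). The sequences are RefSeq's on GRCh38.p14, 5′ to 3′ on the strand of the gene, with GGGCGG, the GC box bound by SP factors, in capitals on either strand.
CLIC3, chr9:136996519-136996818, minus strand: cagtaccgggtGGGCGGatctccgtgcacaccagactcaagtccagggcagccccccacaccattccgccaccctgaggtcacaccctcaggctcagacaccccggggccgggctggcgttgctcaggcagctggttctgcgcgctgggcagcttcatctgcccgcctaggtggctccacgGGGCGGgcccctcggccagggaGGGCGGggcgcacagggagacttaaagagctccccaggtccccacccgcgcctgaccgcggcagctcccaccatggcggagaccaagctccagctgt
ITPR3, chr6:33621072-33621371, plus strand: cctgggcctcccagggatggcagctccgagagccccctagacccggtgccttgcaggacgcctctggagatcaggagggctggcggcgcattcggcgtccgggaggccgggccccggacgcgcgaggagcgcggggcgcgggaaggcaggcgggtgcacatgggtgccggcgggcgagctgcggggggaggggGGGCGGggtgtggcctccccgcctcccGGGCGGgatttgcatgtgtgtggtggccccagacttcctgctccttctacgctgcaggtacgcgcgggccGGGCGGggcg
SCN9A, chr2:166375895-166376194, minus strand: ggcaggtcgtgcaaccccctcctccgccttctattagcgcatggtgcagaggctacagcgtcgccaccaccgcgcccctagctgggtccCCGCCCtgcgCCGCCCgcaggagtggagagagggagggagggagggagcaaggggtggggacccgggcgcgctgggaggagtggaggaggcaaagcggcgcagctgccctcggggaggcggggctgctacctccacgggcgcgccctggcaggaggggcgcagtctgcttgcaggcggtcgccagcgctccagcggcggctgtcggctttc
CHRNA9, chr4:40335083-40335382, plus strand: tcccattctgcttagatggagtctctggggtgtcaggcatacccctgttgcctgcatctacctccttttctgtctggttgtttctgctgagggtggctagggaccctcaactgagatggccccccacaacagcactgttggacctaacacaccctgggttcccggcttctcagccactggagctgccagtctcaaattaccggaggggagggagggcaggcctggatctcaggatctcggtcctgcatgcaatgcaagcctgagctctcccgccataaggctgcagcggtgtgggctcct

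The GC box occurred 3 times in the CLIC3 window, 3 times in that of ITPR3 and 2 times in that of SCN9A, and those letters were not in that of CHRNA9. CpG dinucleotides numbered 20 in CLIC3, 33 in ITPR3 and 28 in SCN9A, against 5 in CHRNA9. The median was 14 over 35116 RefSeq promoters and 23.5 over the 100 promoters of channel genes, so CLIC3 lay below the channel genes' own median. Among the 67 channel genes with a promoter in the table, 52 held a GC box in at least 1 of their promoters (77.6%), against 48.3% of all 27305 genes there. Counted by promoter, 62 of 100 held one (62.0%), against 45.0% of all. At least 1 promoter held one in each of the 9 higher genes matched and in 3 of the 4 lower genes. None of the 4 windows held any other motif searched on both strands. These were the box CCAAT (in 34.6% of all promoters), the TATA box with the letters TATAAA (11.5%), the E-box of ZEB factors with the letters CACCTG (20.6%), and the core of the antioxidant response element with the letters TGACNNNGC (13.3%). Matches of different motifs were counted separately even where they overlapped, and no match says only that the letters are not in the window.

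CLIC3 had the highest ratio of all channel genes. It belongs to a family of small proteins with a glutathione transferase fold that occur in soluble and membrane forms. CLIC3 had 23.2 FPKM in the resistant and 3.39 FPKM in the parental library (log2 ratio 2.47), the 31st highest ratio of all genes compared. Its relative CLIC4 had 19.8 FPKM in resistant and 20.4 FPKM in parental cells (-0.04). Thus CLIC3 lay slightly above CLIC4 in the resistant library and below it in the parental one. The 6 CLC genes encode chloride channels and proton-coupled chloride exchangers of endosomes and lysosomes. By their most abundant loci all 6 lay within 2-fold, from -0.09 to 0.53. CLCN7, the lysosomal exchanger, was the most abundant of them at 55.1 FPKM in resistant and 53.2 FPKM in parental cells. CLCN5 had 25.4 FPKM in resistant and 24.6 FPKM in parental cells and CLCN3 had 15.3 FPKM in resistant and 16.1 FPKM in parental cells, both endosomal exchangers. CLCN6 was highest in ratio (0.53), through a locus joined with NPPA-AS1. CLCN2 and CLCN6 each had 2 further loci, without a strand. Those of CLCN2 lay at 1.42, with 8.71 FPKM in resistant and 2.62 FPKM in parental cells, and at -0.10. Those of CLCN6 lay at 1.12, with 2.06 FPKM in resistant and 0.414 FPKM in parental cells, and at -0.003.

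The calcium release channels of the endoplasmic reticulum split by paralogue. ITPR3, an inositol trisphosphate receptor, had 17.8 FPKM in the resistant and 5.38 FPKM in the parental library (log2 ratio 1.56). ITPR2 had 6.94 FPKM in resistant and 1.95 FPKM in parental cells (1.43), and 0.78 with a pseudocount of 5 FPKM. ITPR1 had 3.87 FPKM in resistant and 4.48 FPKM in parental cells (-0.17). The 3 receptors together summed to 28.6 FPKM in resistant and 11.8 FPKM in parental cells. ITPR3 made up 62.2% of that sum in resistant and 45.6% in parental cells, and ITPR1 made up 13.5% in resistant and 37.9% in parental cells. The row named RYR3, a ryanodine receptor gene, had 1.18 FPKM in resistant and 0.377 FPKM in parental cells, but its place in the row order puts it on the strand opposite to the gene.

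Nicotinic receptor subunits, pentameric channels opened by acetylcholine, gave the lowest ratio of all channel genes. CHRNA9, which in cochlear hair cells forms receptors with CHRNA10, had 3.74 FPKM in the resistant and 24.7 FPKM in the parental library (log2 ratio -2.44), the 20th lowest of all genes compared. CHRNA10 had 1.69 FPKM in resistant and 0.510 FPKM in parental cells (0.84), so CHRNA9 was the higher of the pair in both libraries. CHRNA5, an accessory subunit at the lung cancer risk locus of chromosome 15, was the most abundant nicotinic gene at 35.6 FPKM in resistant and 57.8 FPKM in parental cells (-0.68). Its neighbour CHRNA3 lies on the other strand, and the annotated genes share 2218 bases. A locus of CHRNA3 without a strand had 2.92 FPKM in resistant and 0.586 FPKM in parental cells (1.31), where its locus on the strand of the gene had 0.459 FPKM in resistant and 1.498 FPKM in parental cells (-0.78). The CHRNA3 loci thus differed in direction, and the ratio of each was that of small whole numbers, 5 to 1 and 4 to 13. CHRNB1 of the muscle receptor had 5.93 FPKM in resistant and 6.31 FPKM in parental cells (-0.08).

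Sodium channel pores open on depolarisation and carry the upstroke of the action potential. SCN9A, the pore best known from pain-sensing neurons, had 1.46 FPKM in the resistant and 11.7 FPKM in the parental library (log2 ratio -2.37), the 25th lowest of all genes. SCN8A, a neuronal pore, had 5.43 FPKM in resistant and 6.18 FPKM in parental cells (-0.16). SCN8A was the most abundant sodium channel gene in resistant cells and SCN9A in parental cells.

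Voltage-gated calcium channel genes were lower where they passed the limit. CACNA1B, the N-type pore of presynaptic terminals, had 10.8 FPKM in the resistant and 25.3 FPKM in the parental library (log2 ratio -1.16), and -0.94 with a pseudocount of 5 FPKM. CACNA1H, a T-type pore, had 13.1 FPKM in resistant and 12.9 FPKM in parental cells (0.01), so it was above CACNA1B in resistant cells and below it in parental cells. CACNG7, an auxiliary subunit of AMPA receptors as well as a relative of calcium channel gamma subunits, had 1.19 FPKM in resistant and 6.95 FPKM in parental cells (-1.86), and -0.95 with a pseudocount of 5 FPKM. Its neighbour CACNG8 starts 19098 bases further along chromosome 19 and had 8.69 FPKM in resistant and 6.20 FPKM in parental cells (0.43). The adjacent genes thus differed in direction. The beta subunit CACNB3 had 44.4 FPKM in resistant and 40.7 FPKM in parental cells (0.12) and CACNA2D1 had 22.2 FPKM in resistant and 23.6 FPKM in parental cells (-0.09), the most abundant of the auxiliary genes. CACNA2D2 had 4.44 FPKM in resistant and 2.02 FPKM in parental cells (0.85).

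Voltage-gated potassium channels repolarise cells after excitation. Of their 11 genes compared, 10 lay above 0, with a median log2 ratio of 0.37. The share above 0 was 59.6% of all channel genes and 44.3% of all genes. All channel genes with a mean under 5 FPKM had a median of 0.37 as well. KCNS3, a silent subunit that carries no current alone and modifies KCNB channels, had 6.64 FPKM in the resistant and 0.822 FPKM in the parental library (2.07), and 0.999 with a pseudocount of 5 FPKM. KCNG3, another silent subunit, had 2.12 FPKM in resistant and 0.708 FPKM in parental cells (0.87), and its relative KCNG1, at 4.57 FPKM in resistant and 5.63 FPKM in parental cells (-0.25), was the 1 gene of the group below 0. KCNH2, the cardiac repolarising channel, had 7.57 FPKM in resistant and 7.56 FPKM in parental cells (0.002). KCNS3 alone of the 11 passed the limit.

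**Figure D2:**
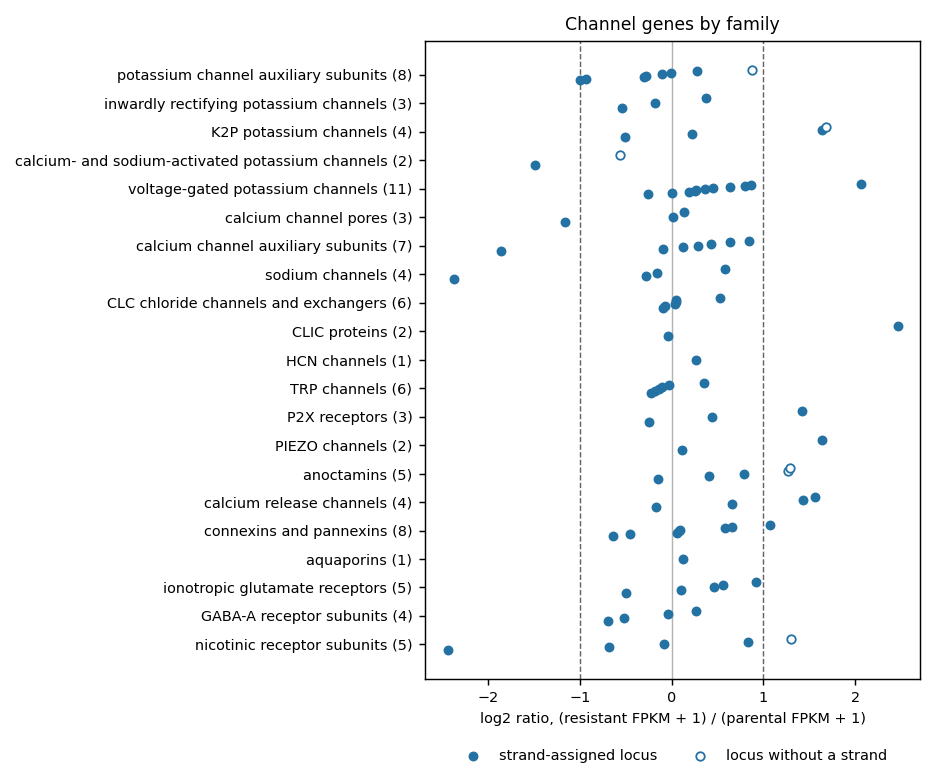
Log2 ratio of resistant over parental FPKM, with a pseudocount of 1, for the 94 channel genes compared, 1 point per gene and 1 row per family with its number of genes in brackets. Dashed lines mark ratios of 1 and -1, and open points are genes represented by a locus without a strand. TRP, CLC and inwardly rectifying potassium channel genes all lie inside the lines, while CLIC3, KCNS3, SCN9A and CHRNA9 lie outside -2 and 2.

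K2P channels carry the background potassium current. KCNK1 had 2.67 FPKM in the resistant and 0.183 FPKM in the parental library (log2 ratio 1.63), and 0.57 with a pseudocount of 5 FPKM. KCNK6, a close relative of KCNK1, had 3.13 FPKM in resistant and 0.285 FPKM in parental cells (1.68) in a locus without a strand, a ratio of 11 to 1 in whole numbers. Its strand-assigned locus had 1.93 FPKM in resistant and 0.776 FPKM in parental cells (0.72). KCNK13, the most abundant K2P gene, had 5.27 FPKM in resistant and 7.90 FPKM in parental cells (-0.50). KCNK1 and KCNK6 therefore lay below KCNK13 in both libraries.

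Among potassium channels opened by intracellular ions, KCNT2, a sodium-activated pore, had 1.76 FPKM in the resistant and 6.75 FPKM in the parental library (log2 ratio -1.49), and -0.80 with a pseudocount of 5 FPKM. KCNN1 encodes a small-conductance calcium-activated pore. Its locus with no strand given had 2.35 FPKM in resistant and 3.92 FPKM in parental cells (-0.56), while the strand-assigned one had 2.38 FPKM in resistant and 2.31 FPKM in parental cells (0.03). KCNMB4 encodes an auxiliary subunit of the large-conductance calcium-activated channel that is abundant in brain. It was the most abundant channel gene in both libraries, at 464 FPKM in resistant and 924 FPKM in parental cells (-0.99). It lay just inside the limit, and at -1.08 with the sums of both libraries made equal it lay past it. KCNMB4 made up 29.7% of the summed FPKM of the 94 channel genes in resistant and 45.8% in parental cells. Without it the sums were 1099 FPKM in the resistant and 1096 FPKM in the parental library.

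The other auxiliary potassium channel genes lay within 2-fold with a pseudocount of 1 FPKM, but KCNAB2 and KCNAB1 passed the limit in other settings. KCNAB2, a beta subunit, had 2.13 FPKM in the resistant and 4.99 FPKM in the parental library (log2 ratio -0.94), and lay at -1.001 with equal sums and at -1.19 with a pseudocount of 0.1 FPKM. KCNAB1, another beta subunit, had 4 loci. The 1 on the strand of the gene had 0.795 FPKM in resistant and 0.399 FPKM in parental cells (0.36). Its most abundant locus, without a strand, had 2.73 FPKM in resistant and 1.027 FPKM in parental cells (0.88). Of the other loci without a strand, 1 had 2.13 FPKM in resistant and 0.164 FPKM in parental cells (1.43, a ratio of 13 to 1), and 1 was listed at 2.60 FPKM in resistant and at 0 in parental cells. KCNAB1 lay at 1.84 with its loci summed and at 1.33 with a pseudocount of 0.1 FPKM. Of the 3 inwardly rectifying channel genes, which hold the resting potential, KCNJ11, the pore of the ATP-sensitive channel, was most abundant at 7.21 FPKM in resistant and 8.26 FPKM in parental cells (-0.17). None of the 3 passed the limit.

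Mechanosensitive PIEZO channels open when the membrane is stretched. PIEZO2, the channel of touch receptors, had 2.87 FPKM in the resistant and 0.237 FPKM in the parental library (log2 ratio 1.64), and 0.59 with a pseudocount of 5 FPKM. PIEZO1 had 44.4 FPKM in resistant and 40.8 FPKM in parental cells (0.12). PIEZO1 therefore remained far above PIEZO2 in both libraries. All 7 loci of PIEZO1 without a strand lay above 0, the largest at 2.71 FPKM in resistant and 0.418 FPKM in parental cells (1.39). Of all 3603 named loci without a strand that reached 1 FPKM, 61.2% lay above 0. The 7 loci belong to 1 gene and do not repeat its measurement.

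Purinergic P2X receptors open on extracellular ATP. P2RX2 had 2.83 FPKM in the resistant and 0.426 FPKM in the parental library (log2 ratio 1.43), and 0.53 with a pseudocount of 5 FPKM. P2RX4 had 10.9 FPKM in resistant and 13.1 FPKM in parental cells (-0.25). The read-through P2RX5-TAX1BP3 had 39.2 FPKM in resistant and 28.6 FPKM in parental cells (0.44), in reads that cannot be divided between its genes.

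Anoctamins include calcium-activated chloride channels and lipid scramblases. ANO6, the scramblase that exposes phosphatidylserine, had 27.1 FPKM in the resistant and 30.1 FPKM in the parental library (log2 ratio -0.15), and ANO8, which tethers the endoplasmic reticulum to the plasma membrane, had 45.8 FPKM in resistant and 26.1 FPKM in parental cells (0.79). ANO8 was above ANO6 in resistant cells and below it in parental cells. ANO7 passed the limit through a locus without a strand, at 6.32 FPKM in resistant and 1.98 FPKM in parental cells (1.30), and its strand-assigned locus had 4.23 FPKM in resistant and 3.67 FPKM in parental cells (0.17). ANO3 had no strand-assigned locus, and its more abundant locus had 2.38 FPKM in resistant and 0.398 FPKM in parental cells (1.27). The ratios of ANO7 and ANO3 were those of 16 to 5 and 6 to 1.

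Connexins form gap junctions between cells. GJA1, the most widely expressed connexin, had 136 FPKM in the resistant and 187 FPKM in the parental library (log2 ratio -0.46), the second most abundant channel gene in both. GJB2, an epithelial connexin, had 8.32 FPKM in resistant and 4.89 FPKM in parental cells (0.66). PANX1, which releases ATP, had 9.78 FPKM in resistant and 9.09 FPKM in parental cells (0.09). GJA1, GJB2 and PANX1 all lay within 2-fold.

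No TRP, glutamate receptor, GABA-A receptor, HCN or aquaporin gene passed 2-fold. The 6 TRP-named genes lay between -0.22 and 0.36, with TRPC4AP at 27.0 FPKM in resistant and 29.03 FPKM in parental cells and TRPC1, a cation channel of the plasma membrane, at 22.1 FPKM in resistant and 25.9 FPKM in parental cells. GRIA2, the subunit that makes AMPA receptors impermeable to calcium, had 28.5 FPKM in the resistant and 40.6 FPKM in the parental library (log2 ratio -0.50). GRIK3, a kainate receptor subunit, had 10.0 FPKM in resistant and 4.83 FPKM in parental cells (0.92), just inside the limit. GABRD, an extrasynaptic GABA-A subunit, had 9.03 FPKM in resistant and 7.35 FPKM in parental cells (0.26) and was the most abundant of its family in resistant cells. Of the 4 GABA-A genes GABRD alone lay above 0 and 3 lay below. Their median log2 ratio was -0.28 and the lowest was -0.69. HCN2, a pacemaker channel, had 5.06 FPKM in resistant and 4.04 FPKM in parental cells (0.27), and AQP11, an aquaporin of internal membranes, had 1.87 FPKM in resistant and 1.63 FPKM in parental cells (0.13).

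**Figure D3:**
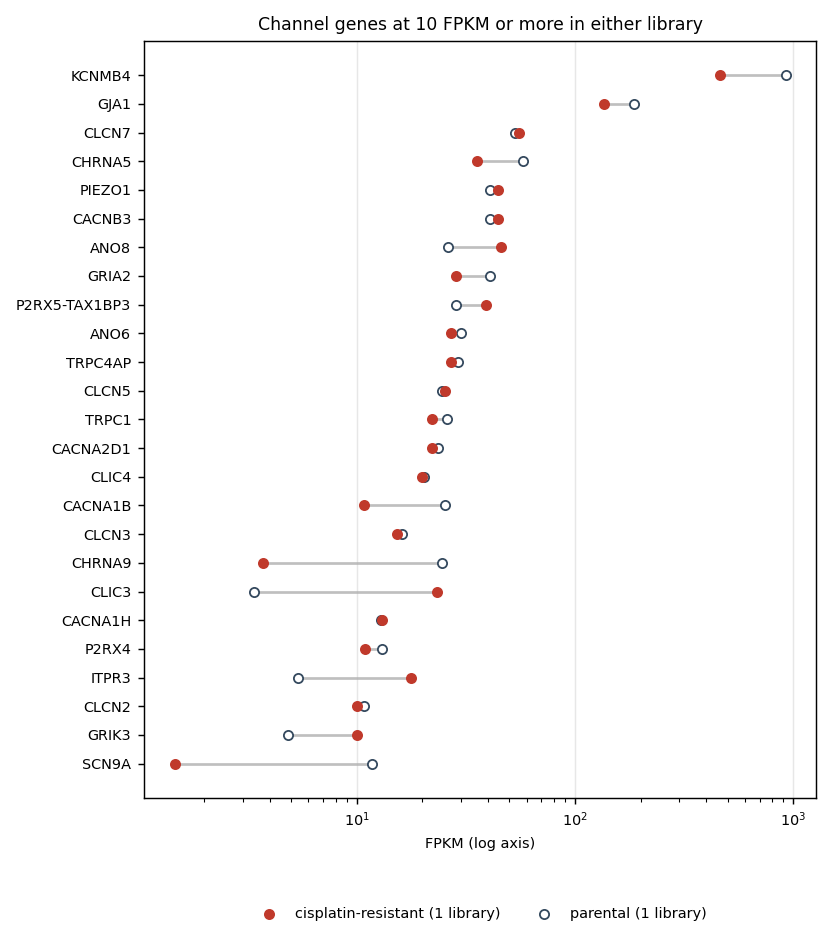
FPKM (log axis) of 25 of the 31 channel genes that reached 10 FPKM in either library, ordered by mean level from the top, with filled points for the cisplatin-resistant and open points for the parental library. KCNMB4 and GJA1 stand above 100 FPKM in both, and most pairs of points lie close together.

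Of the 31 channel genes at 10 FPKM or more in either library, 26 lay within 2-fold, 17 of them with a log2 ratio between -0.25 and 0.25. The 5 past it were CLIC3 and ITPR3, higher in resistant cells, and CHRNA9, SCN9A and CACNA1B, lower. Of all genes at that level 2.30% were higher and 2.40% lower. Among the 63 channel genes under 10 FPKM in both libraries, 10 were higher and 2 lower, where 5.04% of all such genes were higher and 3.24% lower. The values just inside the limit were those of KCNMB4 and KCNAB2 on the lower side, and of GRIK3, KCNAB1, KCNG3, CACNA2D2 and CHRNA10 on the higher side. The last 5 had log2 ratios from 0.84 to 0.92.

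Depth could not be read from the table, so the FPKM ratios of low loci were set against ratios of whole numbers. In 53.0% of the 7591 loci between 0 and 5 FPKM in both libraries, the ratio equalled that of whole numbers up to 20 times 0.996, the relative worth of 1 read in the resistant over the parental library. Of the 94 channel genes, 15 had such a ratio and 79 had none, where 11565 of all 12404 genes compared had none. These counts were not matched for level. Among the 15 were 5 of the 12 higher genes, including KCNK6, CHRNA3, ANO7 and ANO3. None of the 5 lower genes had such a ratio. Without these 15 genes, 7 of 79 channel genes were higher (8.86%) and 5 lower (6.33%), against 2.73% and 2.20% of all 11565 genes without such a ratio. Such a ratio does not give the number of reads.

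Of the 96 channel genes 31 had several loci. Among the 52 loci of channel genes that had no strand and reached 1 FPKM, 14 were at least 2-fold higher (26.9%), against 12.1% of all 3603 such named loci, and 1 was lower (1.92%), against 5.77%. These 52 loci belong to 29 genes and 14 is not a count of genes. The share above 0 was 61.5%, beside 61.2% of all such loci.

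**Figure D4:**
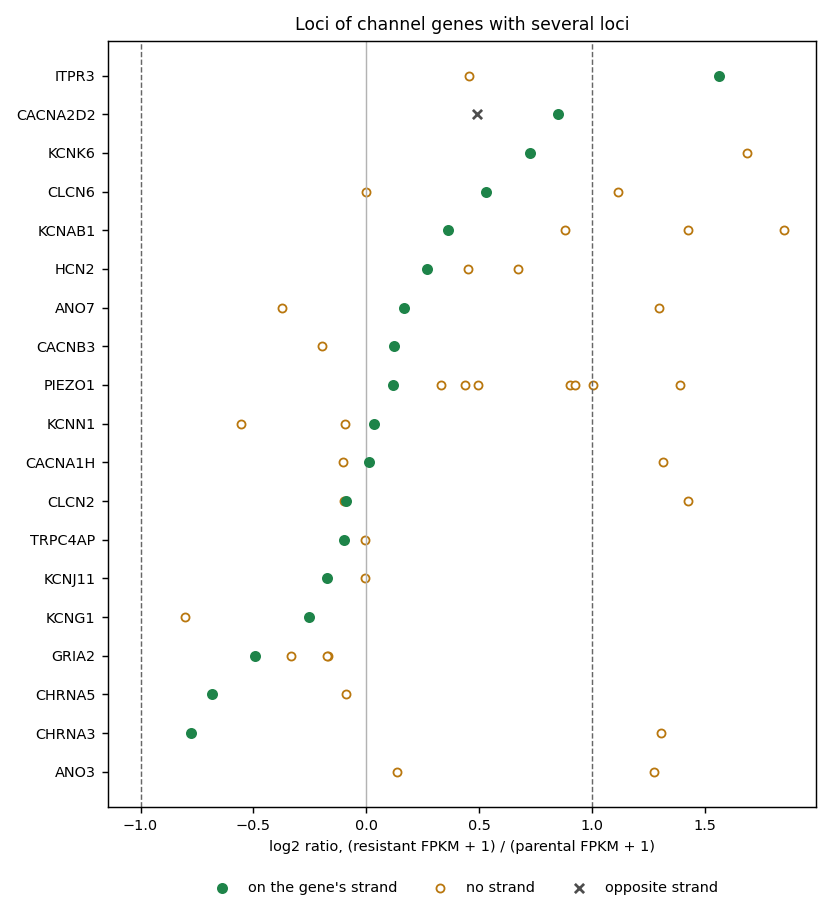
Log2 ratio of resistant over parental FPKM, with a pseudocount of 1, for each locus of 19 of the 31 channel genes with several loci, 1 row per gene in order of its strand-assigned locus. Filled points lie on the strand of the gene, open points have no strand, and crosses lie on the opposite strand. Open points spread past 1 in genes such as PIEZO1, KCNAB1 and CLCN2, whose filled points lie inside the limit.

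Genes that act with channels were described from a list. Of 131 listed pumps, anchors, scaffolds and channels outside the rule, 80 were in the table, and all 80 were compared. Their median log2 ratio was -0.03, with 5 at least 2-fold higher (6.25%, against 3.27% of all genes) and 3 lower (3.75%, against 2.70%). ANK3, an ankyrin that anchors sodium channels at the axon initial segment, had 5.24 FPKM in the resistant and 0.177 FPKM in the parental library (2.41), and 0.98 with a pseudocount of 5 FPKM. Its paralogue ANK2 had 5.99 FPKM in resistant and 24.3 FPKM in parental cells (-1.86), so both ankyrins were near the same level in resistant cells and far apart in parental cells. JPH1, a junctophilin that joins the endoplasmic reticulum to the plasma membrane, had 18.4 FPKM in resistant and 3.07 FPKM in parental cells (2.25). DLG2, a synaptic scaffold, had 11.3 FPKM in resistant and 35.9 FPKM in parental cells (-1.58), and TMEM38B, a potassium channel of the endoplasmic reticulum that aids calcium release, had 43.2 FPKM in resistant and 89.3 FPKM in parental cells (-1.03), and -0.97 with a pseudocount of 5 FPKM.

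The other partner genes past the limit were low. MCOLN3, a lysosomal cation channel, had 6.55 FPKM in resistant and 1.32 FPKM in parental cells (log2 ratio 1.70), SCNN1A, the alpha subunit of the epithelial sodium channel, 7.32 FPKM in resistant and 2.93 FPKM in parental cells (1.08), and NSG1, an endosomal protein of neurons, 4.71 FPKM in resistant and 1.52 FPKM in parental cells (1.18). None of these 3 passed 2-fold with a pseudocount of 5 FPKM. The most abundant partner genes lay within 2-fold. CALM2, a calmodulin gene, had 405 FPKM in resistant and 437 FPKM in parental cells (-0.11), and DLG1, a scaffold, had 425 FPKM in resistant and 319 FPKM in parental cells (0.41). VDAC3 and VDAC2 encode channels of the mitochondrial outer membrane. VDAC3 had 313 FPKM in resistant and 327 FPKM in parental cells (-0.06), and VDAC2 had 165 FPKM in resistant and 181 FPKM in parental cells (-0.13).

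**Figure D5:**
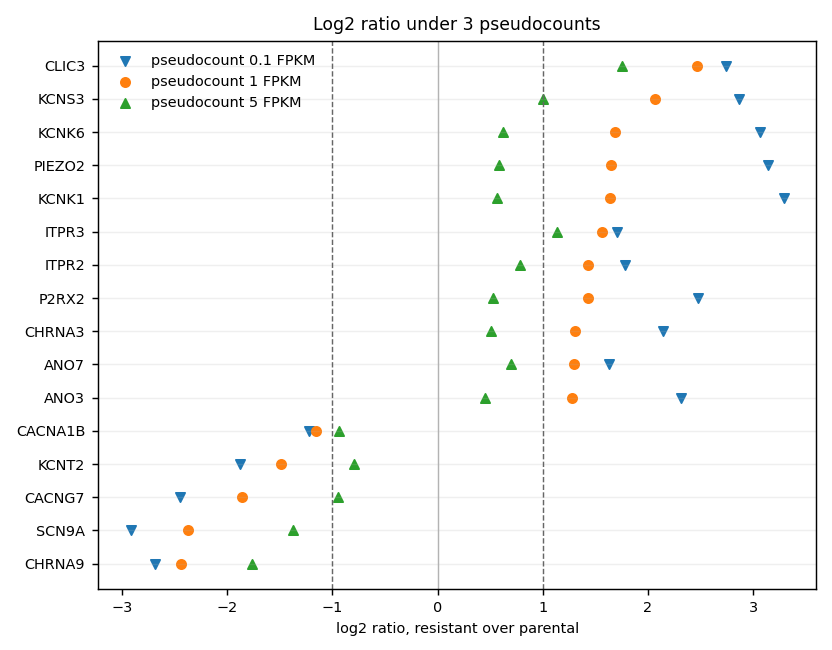
Log2 ratio of resistant over parental FPKM for 16 of the 17 channel genes at least 2-fold apart, under pseudocounts of 0.1, 1 and 5 FPKM. With 5 FPKM, of these 16 genes, only CLIC3, ITPR3, SCN9A and CHRNA9 stay outside the dashed lines at 1 and -1.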

How the data were processed

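The data were 1 library of cisplatin-resistant and 1 of parental SBC5 cells, prepared from polyadenylated RNA with a stranded kit, per the labels' protocols. FPKM was deposited per locus and library, per the file headers, and the submitters' processing notes list TopHat2 and build hg38. Which program and annotation gave the FPKM is not given in the sources used here. No column was left without a sample.

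Loci without a name (2919) or with a date for a name (23) were left out. Each gene was represented by its locus of highest mean FPKM, and a locus that joins a channel gene with another symbol counted for the channel gene. Rows run in 3 parts per chromosome. Fitting the breaks to GENCODE release 29, whose build is that of hg38, placed 12886 loci on a strand, 98.7% of the 11734 annotated ones on their own, and 6331 in a part without strand. This was inferred and is not recorded in the table.

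Log2 ratios used a pseudocount of 1 FPKM and genes at 1 FPKM or more in either library. No test was possible, and ratios from 1 up or from -1 down were counted. Few reads were looked for by matching ratios to whole numbers up to 20 within a relative tolerance of 2e-05, which 0.166% of loci met on average under wrong factors. Channel genes were named when past the limit, when their log2 ratio was at least 0.8 in size, when they had the highest FPKM of their family in a library, when listed at 0 in 1 library and at 1 FPKM or more in the other, or when their loci differed in direction past 2-fold. Partner genes were named when past the limit or among the 5 most abundant. Other genes named, such as KCNH2 and CACNG8, were picked once their values were known. Some genes are not reported here by name. The figures that name genes show those named in the text, and all genes stay in the counts. The rule, lists and settings were chosen with earlier results of these data known. Other settings were pseudocounts of 0.1 and 5 FPKM, no filter and a filter of 5 FPKM, equal sums, division by the median ratio, summed loci, strand-assigned loci and a 4-fold limit. Leaving out some names, among them TRPC4AP, P2RX5-TAX1BP3, the opposite-strand row of RYR3 and the joined locus of CLCN6, left 89 channel genes. This setting, and that without ratios of small whole numbers, were added after seeing the data. Counting was tested on simulated data. Software was Python 3.11.15 and its packages NumPy 2.4.6, pandas 2.3.3 and matplotlib 3.10.9.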

Additional observations from a re-analysis of the deposited data

How the results depend on the processing

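No paired analysis was possible because each group had 1 library and no result came from a test. The count of 12 higher channel genes moved to 19 with a pseudocount of 0.1 FPKM (all genes 4.94%) and to 2 with 5 FPKM (1.14%), to 5 with a filter of 5 FPKM (2.82%), and to 2 with a 4-fold limit (0.613%). It was 7 without genes at ratios of small whole numbers (2.73%), a setting chosen after seeing the data. The count of 5 lower channel genes moved to 2 with a pseudocount of 5 FPKM (all genes 1.10%) and to 2 with a 4-fold limit (0.484%). The median log2 ratio of channel genes moved to 0.013 with the filter of 5 FPKM, which removes low genes. The 5 higher partner genes became 1 with a pseudocount of 5 FPKM and 2 with a 4-fold limit, and the 3 lower ones 0 with a 4-fold limit, where limit and filter change the counts by construction. CHRNA3 turned to -0.78 with strand-assigned loci alone. Of 344 log2 ratios of 45 named channel genes under the 8 other settings, 297 kept their side of the limit and, where the main ratio was at least 0.5 in size, stayed within 1.5 times of it, 46 did not and 1 reversed. Many of the 297 could not differ from the main ratio. Neither filter changes a ratio, and summed or strand-assigned loci change none for a gene with 1 strand-assigned locus. The number of reads behind a value is unknown, which limits most the genes under 5 FPKM.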

Other observations

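Outside the channel genes, the antisense RNA KCNQ1OT1, transcribed from within KCNQ1 and known for imprinting, had 106 FPKM in the resistant and 77.4 FPKM in the parental library (log2 ratio 0.45). KCNQ1 itself had 0.666 FPKM in resistant and 0.703 FPKM in parental cells. KCNIP2-AS1 had 0.487 FPKM in resistant and 0.845 FPKM in parental cells, beside KCNIP2, an auxiliary potassium channel subunit, at 1.60 FPKM in resistant and 2.20 FPKM in parental cells.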
